A study of Mus musculus with 2 samples.

Results

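The levels of 9 genes that mark or drive type 2 helper T cells, of 22686 genes counted, were followed per cell in 2 single-cell RNA libraries of spleen T cells. They were taken by name: the transcription factors Gata3, Maf, Nfil3, Stat6 and Pparg, the receptors Il1rl1, Il17rb and Ccr8, and the enzyme Plcd1. One library came from LatY136F CD45-KO mice and the other from LatY136F mice, both 8 to 9 weeks old. Both genotypes carry the LatY136F mutation, in which the tyrosine of the adaptor LAT that binds phospholipase C gamma is a phenylalanine. Mice with this mutation are known for an expansion of type 2 helper T cells. The CD45-KO mice also lack the phosphatase CD45, the product of Ptprc, and the sources used here do not state whether they lack it in every cell type. Live spleen cells were sorted as CD3+CD5+ and captured on the BD Rhapsody system, which tags each captured RNA molecule with a unique molecular identifier (UMI). The comparison asks how these genes stand in LAT-mutant T cells when CD45 is missing. No wild-type library was used here, and the sources do not state how many mice went into a library.

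Type 2 helper T cells make interleukins 4, 5 and 13 and act in the defence against parasites and in allergy. GATA-3 is their lineage factor. It acts together with STAT6, which the interleukin 4 receptor switches on, and with c-Maf, which acts on the interleukin 4 gene. Cells of this kind sense tissue alarm signals through ST2, the product of Il1rl1 and receptor for interleukin 33, and through the interleukin 25 receptor, of which Il17rb encodes a subunit.

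In all, 12845 cells with 29268453 UMIs came from CD45-KO mice and 13775 cells with 35300371 UMIs from LatY136F mice. Cells with a T cell receptor or CD3 transcript and fewer than 3 UMIs of B-lineage and myeloid genes are called T-gated. There were 12706 T-gated cells with a median of 1986.5 UMIs in the CD45-KO library, against 13710 with a median of 2154 in the LatY136F library. The 2 files share 223 cell indices, and leaving those cells out gave the same count of 4 members past the fold used below, an alternative added after seeing the data. All 10 T cell markers were seen in both libraries. Levels are given as CPM (UMIs of a gene per 1000000 UMIs). Defining markers of mast cells, basophils and eosinophils were at or near 0. Those of mast cells and basophils summed to 2.70 CPM in CD45-KO and 2.59 CPM in LatY136F cells, and those of eosinophils to 0.421 CPM in CD45-KO and 0.370 CPM in LatY136F cells. The near-level mast cell and basophil sums hide markers that went both ways. Mcpt8 had 6 UMIs in CD45-KO and 38 in LatY136F, Prss34 had 18 in CD45-KO and 0 in LatY136F, and Kit had 21 in CD45-KO and 4 in LatY136F. Ptprc was at 1182 CPM in the CD45-KO library and 1760 CPM in the LatY136F library. Which exons were deleted is not stated, so this level does not check the label. Each genotype had 1 library, so no difference below has a replicate check, no test was made, and every interval is a 95% interval for counting error alone. In summed counts, fewer cells of a kind and less RNA per cell cannot be told apart.

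Over all T-gated cells, Il17rb, Ccr8, Plcd1 and Nfil3 were lower in the CD45-KO library by at least 1.5-fold, and no member was higher by that much. Maf lay just short of this fold, Gata3 and Pparg were nearly level, and Il1rl1 and Stat6 were moderately higher in the CD45-KO library. The count of 4 lower members among 9 stands beside 9.08% of all 12720 genes with at least 20 UMIs that were lower by the same fold, and the count of 0 higher members beside 8.11% that were higher (17.2% in either direction). Of the 7 members with at least 20 CPM in either library, 2 were lower past the fold, beside 3.8% of the 6665 genes at that level, and 0 were higher, beside 1.85%. The median log2 ratio of CD45-KO over LatY136F was -0.53 over the members and 0.02 over all genes, of which 90% lay between -0.91 and 0.80. The libraries differed in their mix of cell states, so ratios were also computed with the shares of 9 exclusive states held equal. Then Maf also passed the fold, which made 5 lower members and 0 higher, beside 7.44% and 7.48% of all genes.

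**Figure D1:**
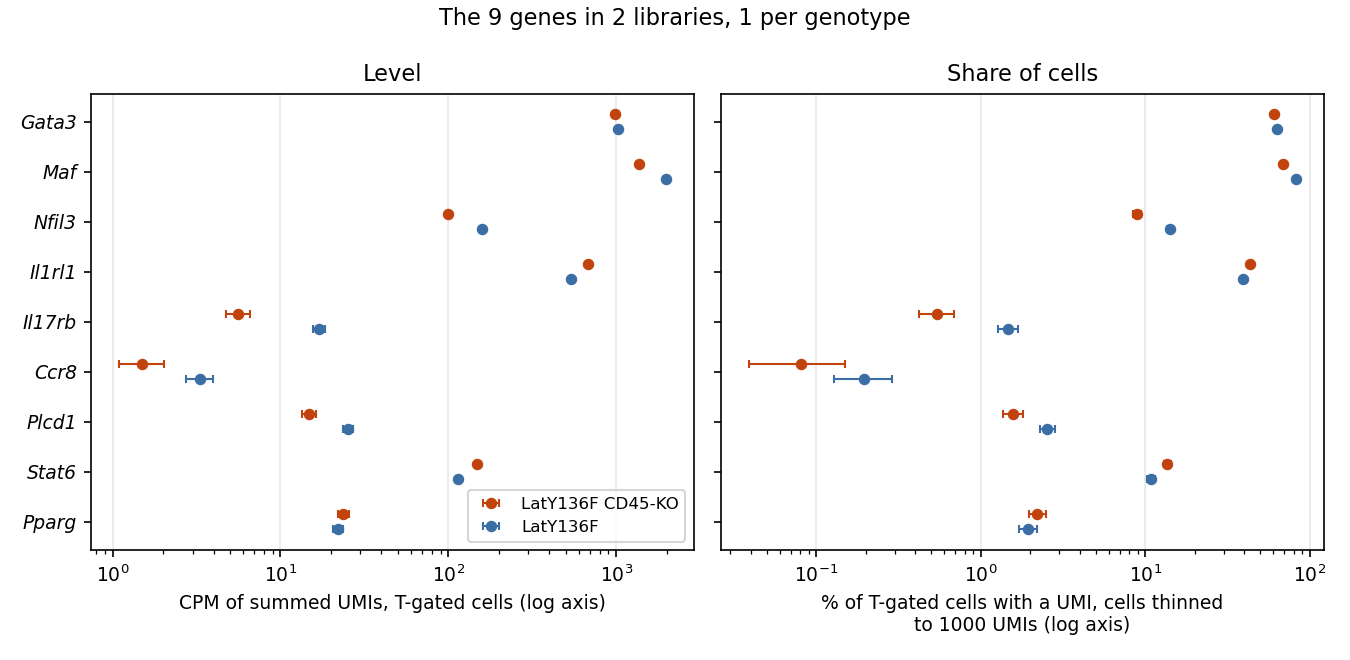
Levels of the 9 genes as CPM of summed UMIs over T-gated cells (left, log axis) and as the percent of T-gated cells with at least 1 UMI after each cell was thinned to 1000 UMIs (right, log axis), with 95% counting intervals; each genotype is 1 library. Il17rb stood at 5.61 CPM in CD45-KO cells and 16.9 CPM in LatY136F cells, while the points for Gata3 and Pparg lie close together.

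Gata3 (ENSMUSG00000015619.10; GRCm38 chromosome 2, 9857078 to 9890034, minus strand, protein coding) encodes the lineage factor of type 2 helper cells. It reached 981 CPM in the CD45-KO library and 1021 CPM in the LatY136F library, a log2 ratio of -0.06 (interval -0.08 to -0.04). After thinning, 60.4% of CD45-KO cells and 62.8% of LatY136F cells held a Gata3 UMI. The difference was small on both scales. The gene 9230102O04Rik lies on the same strand within the Gata3 locus, with 226 UMIs in CD45-KO cells and 284 in LatY136F cells, so reads could be split between them.

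Maf (chromosome 8, 115682942 to 115707794, minus strand) encodes c-Maf, a basic leucine zipper factor that acts on Il4. Its level was 1369 CPM in the CD45-KO library and 1979 CPM in the LatY136F library (log2 ratio -0.53, -0.55 to -0.51), which is 1.44-fold lower. A Maf UMI was found in 68.4% of thinned CD45-KO cells and 82.1% of thinned LatY136F cells. Among thinned cells, 3.42% held 5 or more Maf UMIs in the CD45-KO library and 9.58% in the LatY136F library. A smaller share of thinned cells thus held a Maf UMI in the CD45-KO library, and a smaller share held 5 or more. These shares cannot tell fewer Maf-expressing cells from less Maf RNA per cell. An antisense gene at the locus, Gm15655, was at 280 UMIs in CD45-KO cells and 532 in LatY136F cells, and the sources used here do not state whether the counting used strand.

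Nfil3 (chromosome 13, 52967209 to 52981073, minus strand) encodes a basic leucine zipper repressor known from the circadian clock and from innate lymphoid and helper T cells. It was at 100.2 CPM in the CD45-KO library and 159 CPM in the LatY136F library, 1.59-fold lower (log2 ratio -0.67, -0.73 to -0.60). Its share of thinned cells was 8.93% in CD45-KO cells and 14.2% in LatY136F cells, intervals that do not overlap.

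Stat6 (chromosome 10, 127642986 to 127660957, plus strand), the factor that carries the interleukin 4 signal, differed the other way. Its level was 149 CPM in the CD45-KO library and 114 CPM in the LatY136F library (log2 ratio 0.38, 0.31 to 0.44), and 13.6% of thinned CD45-KO cells held a UMI against 10.8% of LatY136F cells. Pparg (chromosome 6, 115360951 to 115490399, plus strand) encodes a lipid-sensing nuclear receptor that supports type 2 effector cells in mice. It was at 23.7 CPM in the CD45-KO library and 22.0 CPM in the LatY136F library, with an interval of the log2 ratio from -0.04 to 0.26. Over all T-gated cells a difference in Pparg was not detectable at this depth, while single states, given below, went both ways.

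Il1rl1 (ENSMUSG00000026069.15; chromosome 1, 40429570 to 40465415, plus strand) encodes ST2. It was at 677 CPM in the CD45-KO library and 541 CPM in the LatY136F library, a log2 ratio of 0.32 (0.30 to 0.35). The share of thinned cells with an Il1rl1 UMI was 43.5% in the CD45-KO library and 39.1% in the LatY136F library. Il1rl1 was therefore the only one of the 3 receptors that was higher in the CD45-KO library. Counts per gene do not separate the membrane form of ST2 from its soluble form, which come from the same gene.

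Il17rb (ENSMUSG00000015966.17; chromosome 14, 29996135 to 30008896, minus strand) was rare in both libraries. It had 160 UMIs (5.61 CPM) in CD45-KO cells and 595 UMIs (16.9 CPM) in LatY136F cells, 3.02-fold lower, with a log2 ratio of -1.60 (-1.86 to -1.34). Of thinned cells, 0.542% of CD45-KO and 1.47% of LatY136F cells held a UMI. Il17rb had the lowest ratio of the 9 genes. It overlaps Actr8 on the opposite strand over 10220 bases, and Actr8 was at 1010 UMIs in CD45-KO cells and 1008 in LatY136F cells.

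Ccr8 (chromosome 9, 120092114 to 120094906, plus strand), a chemokine receptor of type 2 and regulatory T cells, had the fewest UMIs. It had 43 UMIs (1.51 CPM) in the CD45-KO library and 116 UMIs (3.3 CPM) in the LatY136F library (log2 ratio -1.13, -1.67 to -0.62). After thinning, 10 CD45-KO cells and 26 LatY136F cells held a Ccr8 UMI, and the intervals of these shares overlap.

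Plcd1 (chromosome 9, 119071527 to 119093502, minus strand) encodes phospholipase C delta 1, a calcium-dependent enzyme that cleaves the same membrane lipid as the phospholipase C gamma that LAT recruits. It was at 14.9 CPM in the CD45-KO library and 25.4 CPM in the LatY136F library, 1.70-fold lower (log2 ratio -0.77, -0.94 to -0.60). A Plcd1 UMI was found in 1.58% of thinned CD45-KO cells and 2.54% of LatY136F cells.

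Free RNA can place UMIs in cells that do not express a gene, so the same 9 genes were read in B-lineage cells. The sort left 16 such cells in the CD45-KO library and 4 in the LatY136F library, with median depths of 3792 UMIs in CD45-KO and 3624.5 in LatY136F. Pooled over these 20 unthinned cells, Gata3 was seen in 20%, Maf in 25%, Nfil3 in 10%, Il1rl1 in 15% and Stat6 in 20%. Unthinned T-gated cells had 81.0% for Gata3, 85.1% for Maf and 60.9% for Il1rl1 in the CD45-KO library, against 84.7%, 94.7% and 57.0% in the LatY136F library. For Gata3, Maf and Il1rl1 the T cell shares were above the upper bound in pooled B-lineage cells, which was 43.7%, 49.1% and 37.9%, and in the CD45-KO library above the bound from its own 16 cells, at 45.6%, 52.4% and 38.3%. The 4 cells of the LatY136F library, 1 of them positive for each of these genes, bound the share only at 80.6%, above its Il1rl1 share. Unthinned shares were 17.9% for Nfil3 and 26.1% for Stat6 in CD45-KO T cells and 28.8% and 23.3% in LatY136F T cells, below the upper bounds of 31.7% and 43.7%. Il17rb, Ccr8, Plcd1 and Pparg had 0 positive cells among 20, which bounds their share only at 16.8%. The shares of Nfil3, Stat6, Il17rb, Ccr8, Plcd1 and Pparg therefore cannot be told apart from free RNA with so few B-lineage cells. These cells were also deeper than T-gated cells, which raises their shares. As CPM, the pooled B-lineage cells had 28.6 for Nfil3 and 38.1 for Stat6, below the T-gated levels given above. Whether B-lineage cells express these genes themselves, or hold T cell RNA from doublets, was not tested.

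Promoter letters were read for 8 of the 9 members from RefSeq on GRCm38.p6, in 12 windows of 300 bases (250 before a start site and 50 after). The 6 letters AGATAA or TGATAA, which GATA factors are known to bind, were searched on both strands. They occurred in the windows of Il1rl1 and Ccr8, and in 18.6% of 32851 promoters of the same length. Il1rl1 has a distal and a proximal start site, whose windows begin 10059 bases apart, and all 3 of its matches are shown because Il1rl1 is compared with Gata3 in single cells further on. The distal window (chr1:40429320-40429619, plus strand) has matches 217 and 80 bases before the start. The proximal window (chr1:40439379-40439678, plus strand) has 1 match on the minus strand, 103 bases before the start. The Ccr8 window (chr9:120091883-120092182, plus strand) has 1 match on the minus strand, 239 bases before the start. The Il17rb window (chr14:30008847-30009146, minus strand) is shown as that of the member with the lowest ratio, and held no match. Sequences run 5′ to 3′ on the gene's strand, and capitals mark the matches, which read TTATCT where they lie on the other strand.
Il1rl1 distal: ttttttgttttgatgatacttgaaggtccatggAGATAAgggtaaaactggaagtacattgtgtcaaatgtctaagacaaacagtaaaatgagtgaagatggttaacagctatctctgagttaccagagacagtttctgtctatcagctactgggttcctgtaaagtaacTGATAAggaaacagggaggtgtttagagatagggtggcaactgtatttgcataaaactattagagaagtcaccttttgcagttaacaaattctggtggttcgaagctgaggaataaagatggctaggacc
Il1rl1 proximal: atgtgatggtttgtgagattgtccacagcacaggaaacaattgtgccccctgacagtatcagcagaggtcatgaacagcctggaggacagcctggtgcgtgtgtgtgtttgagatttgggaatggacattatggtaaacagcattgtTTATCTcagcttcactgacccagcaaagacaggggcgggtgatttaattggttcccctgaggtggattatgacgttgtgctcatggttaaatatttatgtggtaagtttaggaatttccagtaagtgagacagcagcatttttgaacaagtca
Ccr8: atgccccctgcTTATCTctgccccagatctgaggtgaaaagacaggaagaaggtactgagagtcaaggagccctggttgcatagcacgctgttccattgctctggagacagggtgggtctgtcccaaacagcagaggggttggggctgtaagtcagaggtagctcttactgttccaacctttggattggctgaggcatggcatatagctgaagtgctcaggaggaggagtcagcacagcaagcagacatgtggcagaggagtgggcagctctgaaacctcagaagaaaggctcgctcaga
Il17rb: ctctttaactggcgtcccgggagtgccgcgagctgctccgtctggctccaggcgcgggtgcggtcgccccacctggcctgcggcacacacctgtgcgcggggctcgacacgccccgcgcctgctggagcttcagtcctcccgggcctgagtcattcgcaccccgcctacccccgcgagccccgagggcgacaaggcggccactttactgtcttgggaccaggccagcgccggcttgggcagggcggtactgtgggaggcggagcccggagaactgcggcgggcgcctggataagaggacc

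The STAT letters, TTC and GAA with 4 bases between them, and the Nfil3 letters TTACNTAA were searched on both strands too. They occurred in 0 of the 8 members' windows, and in 6.95% and 2.32% of all promoters. A match is a description of letters and not of binding, and a window without one says nothing about the factor. Counts per gene do not tell which Il1rl1 start site was used.

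Cell states were then gated on transcripts other than the 9 genes, with 13 overlapping gates that held at least 50 cells in each library. The shares of several states differed between the libraries. Cycling cells, with at least 3 of 13 cell cycle genes, made up 1.99% of CD45-KO and 7.17% of LatY136F T-gated cells. Cells with a granzyme UMI (Gzma or Gzmb) made up 3.69% of CD45-KO and 18.5% of LatY136F cells. Quiescent cells, with at least 2 of 4 genes of resting T cells, made up 15.1% of CD45-KO and 6.70% of LatY136F cells. Follicular cells, with at least 2 of Cxcr5, Il21, Sostdc1 and Bcl6, made up 1.68% of CD45-KO and 0.956% of LatY136F cells. Median depth was 5934 UMIs in cycling cells of the CD45-KO library and 5321 in those of the LatY136F library, above the other states.

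Of 104 pairs of a state and a member with enough UMIs, 30 were lower in the CD45-KO library by at least 1.5-fold. Over the same states, 9.85% of all 115430 pairs of a state and a gene were lower by that fold and 9.04% were higher, with between 6.62% and 20.5% lower in single states. The gates overlap and come from the same 2 libraries, so counts of states are not repeated observations. The share of all genes with as many states on the same side of 0 was not computed. Maf was below 0 in 13 of 13 states, counting a ratio of -0.00 in follicular cells, and passed the fold in 2 of them. Nfil3 was below 0 in 12 of 13 states and passed the fold in 6. Plcd1 was below 0 in 10 of 10 states and passed in 7, and Il17rb was below 0 in 10 of 11 and passed in 8. Il1rl1 and Stat6 were each above 0 in 12 of 13 states, Il1rl1 higher past the fold in 3 and Stat6 in 0. Gata3 passed the fold in 0 of 13 states, and its ratio of -0.58 in cytotoxic cells lay just short of it.

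**Figure D2:**
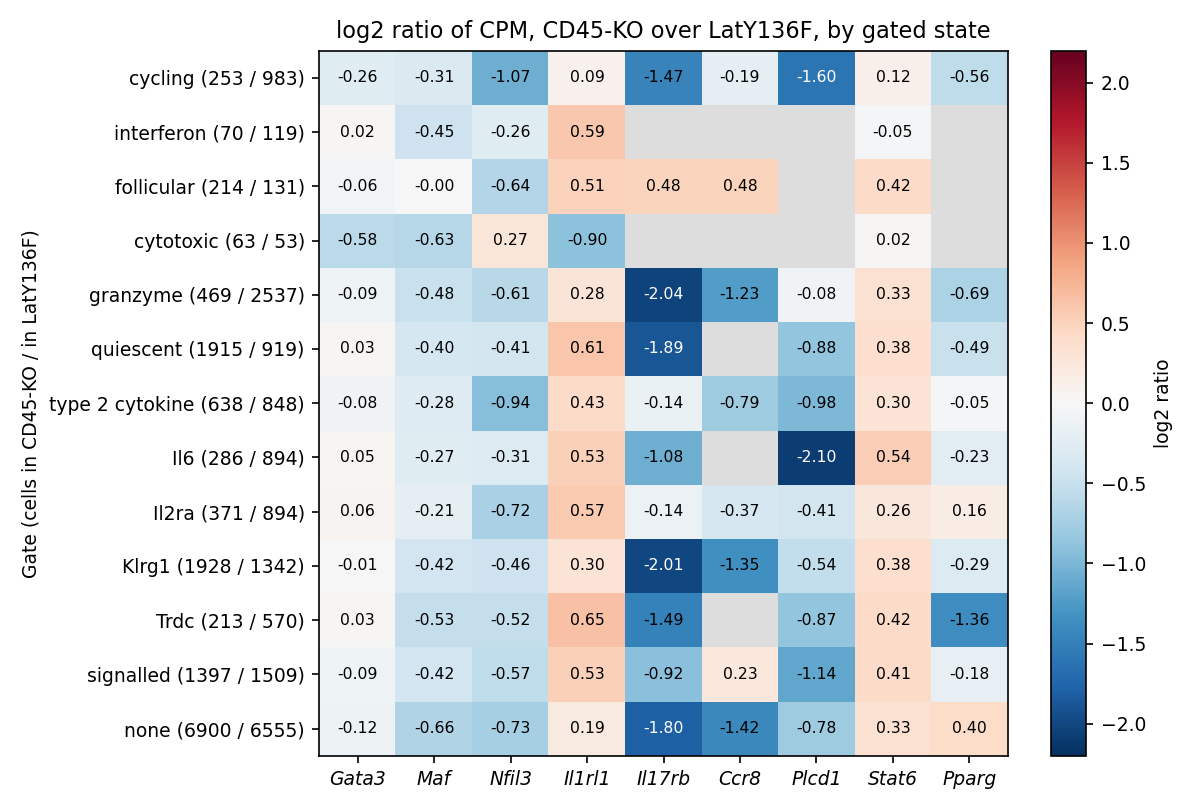
Log2 ratio of CPM, CD45-KO over LatY136F, for each member (columns) in each gated state (rows, with the number of CD45-KO and LatY136F cells); grey marks pairs with too few UMIs, and the Ccr8 value in granzyme cells uses a floor of 3 UMIs in place of 0. The Maf, Nfil3 and Plcd1 columns are mostly blue (lower in CD45-KO), and the Il1rl1 and Stat6 columns mostly red (higher in CD45-KO), with cytotoxic cells the exception for Il1rl1 at -0.90.

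The spread of Il1rl1 between states was wider than its difference between the libraries. It was highest in cells with an Il6 UMI, at 855 CPM in the CD45-KO library, followed there by Trdc-positive cells at 776 CPM and cells in no gate at 744 CPM. In the LatY136F library, cells in no gate led with 650 CPM, then Il6 cells with 592 CPM and granzyme cells with 542 CPM. In the CD45-KO library the counting interval of Trdc-positive cells (703 to 855 CPM) overlaps with that of Il6 cells (789 to 925 CPM) and with that of ungated cells, so the top of the order is not resolved there. The middle of the order held granzyme, Klrg1, quiescent and signalled cells, between 586 and 657 CPM in the CD45-KO library and between 406 and 542 CPM in the LatY136F library. Interferon, type 2 cytokine and Il2ra cells followed, between 427 and 466 CPM in the CD45-KO library and between 287 and 336 CPM in the LatY136F library. The lowest levels were in cycling cells, at 184 CPM in CD45-KO and 172 CPM in LatY136F, and in follicular cells, at 62.1 CPM in CD45-KO and 43.6 CPM in LatY136F. Cytotoxic cells were as low as follicular cells in the CD45-KO library, with 63.3 CPM, and had 118 CPM in the LatY136F library, from 16 UMIs in CD45-KO and 18 in LatY136F.

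The ratio of Il1rl1 was 0.65 (0.47 to 0.82) in Trdc-positive cells, 0.61 (0.51 to 0.70) in quiescent cells and 0.59 (0.19 to 0.99) in interferon cells. It was 0.09 (-0.09 to 0.28) in cycling cells and 0.19 (0.15 to 0.24) in cells of no gate. The interval in cytotoxic cells ran from -1.97 to 0.16, so the one value below 0 was not detectable as a difference at this depth.

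Gata3 followed Il1rl1 at the low end. Follicular cells had 340 CPM of Gata3 in the CD45-KO library and 354 CPM in the LatY136F library, and cytotoxic cells had 293 CPM in the CD45-KO library and 439 CPM in the LatY136F library. In the other 11 states Gata3 lay between 534 and 1051 CPM in the CD45-KO library and between 642 and 1140 CPM in the LatY136F library, with cycling cells lowest and ungated cells highest. Type 2 cytokine cells, defined by a UMI of Il4, Il5 or Il13, had 812 CPM in the CD45-KO library and 857 CPM in the LatY136F library. Gata3 was thus lower in the cells with an Il4, Il5 or Il13 UMI than in the ungated cells of the same library. Ungated cells by definition leave out cycling, follicular and cytotoxic cells, in which Gata3 was low. The type 2 cytokine gate overlaps with other gates. It held 638 CD45-KO and 848 LatY136F cells, of which 421 and 490 stayed in it when states were made exclusive. The comparison therefore does not set cytokine-positive cells apart from those states.

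Maf behaved differently in follicular cells, a T cell kind in which c-Maf is also known to act. There it stood at 1896 CPM in the CD45-KO library and 1902 CPM in the LatY136F library, a log2 ratio of -0.00 (-0.11 to 0.11). In cells of no gate it was at 1381 CPM in the CD45-KO library and 2174 CPM in the LatY136F library (-0.66, -0.68 to -0.63). Across states the CD45-KO library had its highest Maf level in follicular cells, and the LatY136F library had it in ungated cells.

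Nfil3 had its lowest ratio in cycling cells, with 57.8 CPM in the CD45-KO library and 121 CPM in the LatY136F library (-1.07, -1.38 to -0.77). Type 2 cytokine cells had 76.7 CPM in CD45-KO and 147 CPM in LatY136F (-0.94, -1.22 to -0.67). The highest Nfil3 levels were in Il6 cells of both libraries, at 147 CPM in CD45-KO and 182 CPM in LatY136F, which overlapped with the 181 CPM of LatY136F granzyme cells. Stat6 was more even, between 89.0 and 158 CPM over the 13 states in the CD45-KO library and between 88.0 and 125 CPM in the LatY136F library.

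Pparg was at 37.2 CPM in Klrg1-positive cells of the CD45-KO library and 45.6 CPM in those of the LatY136F library, while ungated cells had 22.7 CPM in CD45-KO and 17.2 CPM in LatY136F. Klrg1 encodes an inhibitory receptor of effector T cells. In ungated cells the Pparg ratio was 0.40 (0.15 to 0.65) and in Trdc-positive cells it was -1.36 (-3.06 to -0.02), from 5 UMIs in CD45-KO and 41 in LatY136F. Quiescent cells had a Pparg ratio of -0.49 (-0.88 to -0.11) and cycling cells one of -0.56 (-1.14 to -0.01). Of 10 states with enough UMIs, Pparg was below 0 in 8, past the fold in 2 of them, and above 0 in 2. Plcd1 had its lowest ratio in Il6 cells, -2.10 (-4.01 to -0.67), from 4 UMIs in CD45-KO and 68 in LatY136F.

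The ratios of Il17rb and Ccr8 were above 0 in follicular cells, from few UMIs and with intervals that span 0. Il17rb there was at 30.5 CPM (26 UMIs) in the CD45-KO library and 21.8 CPM (13 UMIs) in the LatY136F library, with a ratio of 0.48 (-0.53 to 1.57). Outside the gate it was at 4.84 CPM (134 UMIs) in the CD45-KO library and 16.9 CPM (582 UMIs) in the LatY136F library, with a ratio of -1.80 (-2.08 to -1.53). Follicular cells held 16.2% of all Il17rb UMIs in the CD45-KO library and 2.18% in the LatY136F library. Ccr8 had 14 UMIs in CD45-KO and 7 in LatY136F follicular cells (0.48, -0.92 to 2.03), and 29 UMIs in CD45-KO and 109 in LatY136F cells outside the gate (-1.59, -2.24 to -0.99). Follicular cells were not the only ones in which no difference was detectable. Il17rb was at 18.8 CPM in CD45-KO and 20.7 CPM in LatY136F type 2 cytokine cells (-0.14, -0.78 to 0.47), and its ratio was -0.14 (-0.98 to 0.64) in Il2ra cells. The Ccr8 ratio was 0.23 in signalled cells, -0.19 in cycling cells and -0.37 in Il2ra cells, and all 3 intervals span 0.

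Co-expression was read in cells thinned to 1000 UMIs, so that depth does not make genes occur together. Most cells held few of the 9 genes. In the CD45-KO library 25.3% of cells held exactly 1 member, 38.7% held 2 and 24.4% held 3, against 21.2%, 39.4% and 27.8% in the LatY136F library. Cells with 5 or more members were rare, at 52 with 5 and 2 with 6 in the CD45-KO library and 90 with 5 and 2 with 6 in the LatY136F library. None was seen in 5.85% of CD45-KO and 3.84% of LatY136F cells.

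Gata3 and Il1rl1 occurred together slightly more often than independent draws would give. Both were seen in 27.2% of CD45-KO cells, where independence gives 26.3%, and in 25.9% of LatY136F cells, where it gives 24.5%. Cells with Gata3, Maf and Il1rl1 made up 19% of the CD45-KO library (18.0% if independent) and 21.9% of the LatY136F library (20.1% if independent). The excess was thus about 1 to 2 percentage points in both libraries.

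Cells were next divided by whether they held a UMI of one member, and the others were compared between the 2 sets. This gave 64 ordered pairs, since Ccr8 had too few positive cells to divide on, and 12 pairs had intervals on the same side of 0 in both libraries. The share of all gene pairs that do so was not computed, so the count shows nothing particular to the members. A pair of genes can count in both orders. In the CD45-KO library Gata3 was at 1085 CPM in Il1rl1-positive and 985 CPM in Il1rl1-negative cells (log2 ratio 0.14, 0.09 to 0.19). In the LatY136F library it was at 1162 CPM in Il1rl1-positive and 1039 CPM in Il1rl1-negative cells (0.16, 0.11 to 0.21). Nfil3 was likewise higher in Il1rl1-positive cells, by 0.25 (0.08 to 0.41) in the CD45-KO library and 0.22 (0.10 to 0.35) in the LatY136F library. Pparg-positive cells had less Maf than Pparg-negative cells, with ratios of -0.34 (-0.51 to -0.17) in CD45-KO and -0.29 (-0.42 to -0.15) in LatY136F. They had more Il17rb, with ratios of 1.74 (0.08 to 3.04) in CD45-KO and 1.46 (0.44 to 2.33) in LatY136F, from 5 UMIs in positive cells of CD45-KO and 11 of LatY136F. These 4 relations were picked from the 12 pairs, so their shared sign in both libraries is part of the choice. The last was larger than the other 3 and had the widest intervals. In cells thinned to 500 UMIs the Gata3 ratio by Il1rl1 was 0.06 in the CD45-KO library, with an interval from -0.01 to 0.14 that spans 0, and 0.15 (0.08 to 0.23) in the LatY136F library. At that depth Nfil3 by Il1rl1 kept intervals above 0 in both libraries. Maf by Pparg was -0.31 (-0.62 to -0.01) in CD45-KO and -0.16 (-0.42 to 0.08) in LatY136F. Il17rb by Pparg was 2.27 (-0.83 to 4.25) in CD45-KO and 1.77 (-0.13 to 3.17) in LatY136F.

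Il17rb and Il1rl1, of the receptors for interleukins 25 and 33, were compared in the same way. In the CD45-KO library Il17rb was at 2.05 CPM (11 UMIs) in Il1rl1-positive and 8.59 CPM (60 UMIs) in Il1rl1-negative cells, a log2 ratio of -2.07 (-3.15 to -1.13). In the LatY136F library it was at 17.9 CPM (93 UMIs) in Il1rl1-positive and 14.8 CPM (120 UMIs) in Il1rl1-negative cells, a ratio of 0.27 (-0.13 to 0.68). The intervals of the 2 libraries do not overlap at this depth. With cells thinned to 500 UMIs both ratios were below 0 and the intervals overlap, at -1.97 (-4.33 to -0.29) in the CD45-KO library, from 3 UMIs in positive and 31 in negative cells, and -0.21 (-0.91 to 0.45) in the LatY136F library. Il17rb was also lower in Gata3-positive than in Gata3-negative cells of both libraries, by ratios of -1.58 (-2.35 to -0.84) in CD45-KO and -0.44 (-0.84 to -0.04) in LatY136F. With cells thinned to 500 UMIs these ratios were -1.54 (-3.10 to -0.24) in CD45-KO and -0.39 (-0.99 to 0.19) in LatY136F, where the interval spans 0. Gata3 in Il17rb-positive over Il17rb-negative cells was at -0.82 (-1.32 to -0.37) in CD45-KO and -0.29 (-0.51 to -0.07) in LatY136F. Follicular cells had little Il1rl1 in both libraries. Their Il17rb level was above that outside the gate in the CD45-KO library, while the intervals overlap in the LatY136F library. The values for Il17rb by Il1rl1 were therefore also taken outside the follicular gate, an alternative chosen after seeing the data. There the ratio was -2.05 (-3.26 to -1.0) in the CD45-KO library, from 9 UMIs in Il1rl1-positive and 47 in Il1rl1-negative cells. It was 0.30 (-0.11 to 0.71) in the LatY136F library, from 92 UMIs in Il1rl1-positive and 115 in Il1rl1-negative cells. The values for Il17rb by Gata3 were not taken outside that gate.

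Cells were also binned by their number of Il1rl1 UMIs. Gata3 in CD45-KO cells was 985, 1096, 1079 and 1053 CPM in cells with 0, 1, 2 and 3 or more Il1rl1 UMIs, and in LatY136F cells 1039, 1158, 1150 and 1201 CPM. The step lay between 0 and 1 UMI, and the intervals of the upper 3 bins overlap in each library. Nfil3 over the same bins was 93.1, 103, 123 and 114 CPM in CD45-KO cells and 154, 175, 177 and 205 CPM in LatY136F cells. Mki67, a gene of dividing cells, ran the other way, with 113, 57.7, 53.8 and 44.3 CPM in the CD45-KO library and 196, 108, 73.7 and 71.5 CPM in the LatY136F library. Cells with an Il1rl1 UMI thus had less of this division marker than cells without one in both libraries. Among the upper 3 bins the Mki67 intervals overlap in CD45-KO. In LatY136F the interval at 1 UMI (96.6 to 120 CPM) lies above that at 2 UMIs (60.0 to 89.7 CPM). Il4 was at 33.4 CPM in Il1rl1-negative cells of both libraries and between 16.5 and 23.4 CPM in the positive bins.

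**Figure D3:**
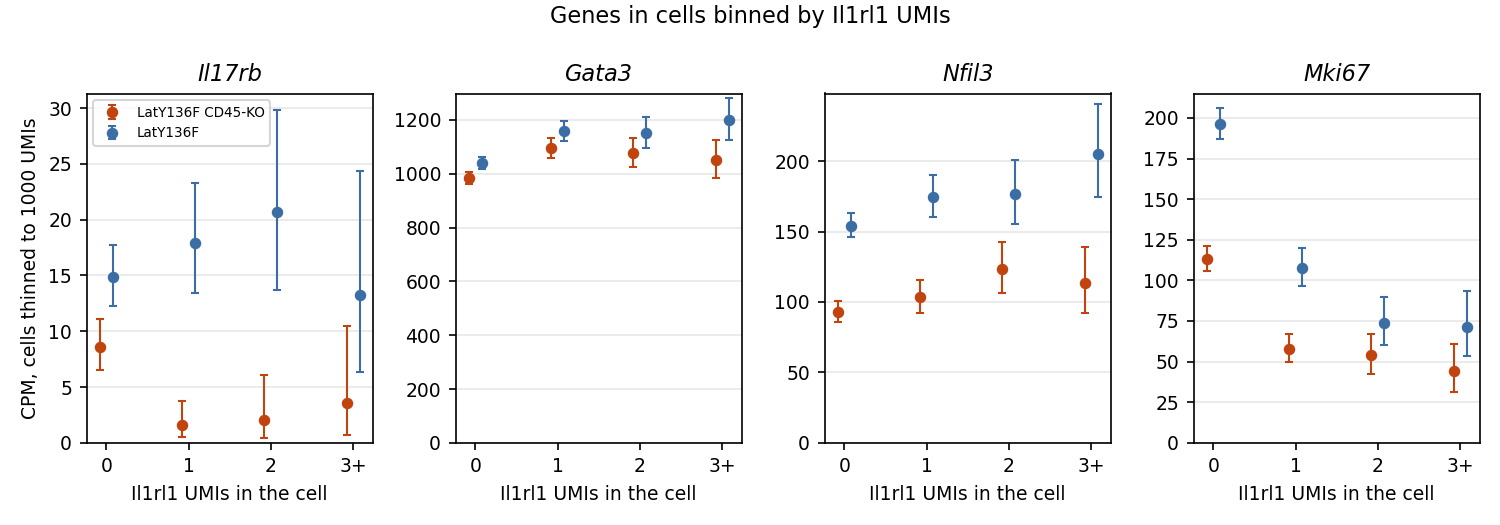
CPM of Il17rb, Gata3, Nfil3 and Mki67 (vertical axes, from 0) in cells holding 0, 1, 2 or 3 and more Il1rl1 UMIs, cells thinned to 1000 UMIs, with 95% counting intervals. Il17rb in CD45-KO cells is at 8.59 CPM in the first bin and between 1.62 and 3.59 CPM in the others, whereas in LatY136F cells it lies between 13.2 and 20.6 CPM in all 4.

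The genes most like each member were those with the highest lower bound, in both libraries, of their ratio between cells with and without a UMI of that member. A candidate needed at least 20 UMIs in the positive cells of each library. With few positive cells this filter favours genes that are high in them, and the ratio is read from the same cells. Il17rb, with 67 positive cells in CD45-KO and 195 in LatY136F, had 448 candidates, and Pparg had 2148. Il1rl1 had 8691 candidate genes. Its closest was Mctp1, a calcium-binding membrane protein gene, at 15.5 CPM in positive and 7.45 CPM in negative cells of the CD45-KO library, and at 35.5 CPM in positive and 18.5 CPM in negative cells of the LatY136F library. Alox5, the 5-lipoxygenase gene of leukotriene synthesis, followed with log2 ratios of 0.94 in CD45-KO and 0.77 in LatY136F, and then Plxdc2, Phlda1 and Neb. For Gata3 the closest gene was Csf1, which encodes a macrophage growth factor, with ratios of 0.36 in CD45-KO and 0.32 in LatY136F, followed by Mmp25, Pltp, Ccr2 and Gpr183. For Maf it was Ifi204, an interferon-inducible gene (0.97 in CD45-KO and 0.64 in LatY136F), followed by F2r, Akr1c18, Csf1 and Cysltr1. The ratios found for Gata3 were small.

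Nfil3 was most like Gzmb, the granzyme B gene (1.02 in CD45-KO and 0.48 in LatY136F), and after it Cish, F2r, Il10ra and Lif. Il17rb was most like Sostdc1, a gate gene of follicular cells, at 448 CPM in Il17rb-positive and 33.9 CPM in negative cells of the CD45-KO library, and at 103 CPM in positive and 18.1 CPM in negative cells of the LatY136F library. Sostdc1 had 30 UMIs in the positive cells of CD45-KO and 20 in those of LatY136F, the least the filter allows. Cxcr6, Dusp2, Tcf7 and Samhd1 came next for Il17rb. Pparg was most like Il9r, the interleukin 9 receptor gene (1.97 in CD45-KO and 2.48 in LatY136F), followed by Lztfl1, Cxcr6 and Gpr65. Cxcr6, a chemokine receptor gene, stood among the 5 closest of both Pparg and Il17rb. For Plcd1 the order was Zyx, Abcf1, Lgals1, S100a6 and Ly6a, with ratios of at most 0.52 in either library. For Stat6 it was Cd101, D8Ertd738e, Adgre5, Cc2d1b and Taok2, with ratios of at most 0.76. The lower bounds that set these 2 orders were close to 0. They were at most 0.10 among 1796 candidates for Plcd1 and 0.11 among 6812 for Stat6, so neither order shows a clear likeness.

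The wider pathways were read from 14 lists, of which 142 genes had at least 20 UMIs. Of these, 30 passed the 1.5-fold limit in either direction, beside 17.2% of all genes. The list of type 2 cytokines, which also holds Il3, Il6 and Il10, had 4 lower and 0 higher of 7 tested. The lower ones were Il6, Il13, Il10 and Il3. The median log2 ratio of -1.50 was that of Il6, so it does not describe Il4. Il4 was near level, at 31.8 CPM in the CD45-KO library and 36.7 CPM in the LatY136F library, and Il6, an inflammatory cytokine, was at 10.9 CPM in the CD45-KO library and 30.9 CPM in the LatY136F library. The effector cytokine Il13 had 25 UMIs in CD45-KO and 132 in LatY136F, and Il10, an inhibitory cytokine, had 8 in CD45-KO and 97 in LatY136F. Il3, a growth factor of mast cells and basophils, had 0 UMIs in CD45-KO and 105 in LatY136F, at least 28.4-fold lower with a floor of 3 UMIs.

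Other regulators of type 2 helper T cells had 2 lower and 1 higher of 20 tested, with a median of 0.13. The lower ones were Irf4, a factor induced by receptor signals (-0.82), and Ecm1 (-1.23), and the higher one was Tcf7, the factor of naive and memory T cells, at 389 CPM in CD45-KO and 166 CPM in LatY136F. Opposing regulators, such as those of type 1 and follicular cells, had 1 lower and 2 higher of 12, with a median of 0.40. The higher ones were Lef1, at 102 CPM in CD45-KO and 56.1 CPM in LatY136F, and Tbx21 (0.83, 0.24 to 1.42), and the lower one was Foxp3 (-1.33, -1.73 to -0.94). With the mix of states held equal that list had 0 lower and 0 higher.

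Other type 2 surface receptors had 4 lower and 0 higher of 13, with a median of -0.25. The lower ones were Il2ra (-1.18), the costimulatory receptors Tnfrsf4 (-0.90) and Icos (-0.63), and Il4ra (-0.69), the interleukin 4 receptor chain upstream of Stat6. Il4ra was at 64.6 CPM in the CD45-KO library and 104 CPM in the LatY136F library, so it and Stat6 differed in opposite directions. With the mix of states held equal Il2ra no longer passed the fold (-0.53), and Il9r (-0.40 before) passed it at -0.61. The interleukin 4 receptor and Stat6 pathway as a whole had 1 lower (Il4ra) and 1 higher of 14, with a median of -0.11. The higher one was Socs5, an inhibitor of cytokine signals, at 15.6 CPM in CD45-KO and 9.06 CPM in LatY136F.

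The interleukin 1 receptor family had 2 lower and 0 higher of 7, with a median of -0.02. Its genes beside Il1rl1 in a cluster on chromosome 1 did not share a direction. Il1r2, a decoy receptor for interleukin 1, was at 8.62 CPM in CD45-KO and 26.9 CPM in LatY136F (-1.64), and Il1r1 was at 35.3 CPM in CD45-KO and 60.3 CPM in LatY136F (-0.77). Both lie before Il1rl1. Il18r1, which starts 136 bases past the end of Il1rl1, had a ratio of 0.44 (0.26 to 0.63), and Il18rap, the next gene, 0.46 (0.28 to 0.65), close to the 0.32 of Il1rl1. Il1rl2, between Il1r1 and Il1rl1, had -0.04 (-0.27 to 0.18). With the mix of states held equal the ratios were -1.36 for Il1r2, -0.85 for Il1r1, 0.25 for Il18r1 and 0.40 for Il18rap. A link to position on the cluster was not tested.

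Downstream of the receptors for interleukins 33 and 25, 0 of 14 genes were lower past the fold and 1 was higher, with a median of 0.06. The higher one was Mapk14, the p38 kinase gene, at 113 CPM in CD45-KO and 75.3 CPM in LatY136F, and with the mix of states held equal its ratio was 0.51, short of the fold. Myd88, the adaptor of ST2, had a ratio of -0.37, and Il17ra, the partner of Il17rb, had -0.15 (-0.20 to -0.10). The pair of interleukin 17 receptor genes that could be tested had 0 past the fold. The lower level of Il17rb was thus not matched in its partner chain.

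The phospholipase C genes had 1 lower and 0 higher of 9, with a median of -0.04. The lower one was Plcd3, another gene of the delta kind, with 3 UMIs in CD45-KO and 60 in LatY136F (-4.02, -6.34 to -2.41). Plcg1, whose product docks on the LAT tyrosine that is mutated here, was at 70.7 CPM in CD45-KO and 65.6 CPM in LatY136F. The partners and lipid genes of Pparg had 2 lower and 0 higher of 16, with a median of 0.16, and Fabp5, a fatty acid binding protein gene, was at 34.6 CPM in CD45-KO and 82.7 CPM in LatY136F. The other lower one, Scd1, had 6 UMIs in CD45-KO and 18 in LatY136F, with an interval from -2.91 to 0.11.

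The clock genes around Nfil3 had 1 lower and 3 higher of 13, with a median of 0.38. Nr1d2, a clock repressor of the REV-ERB kind, was at 30.4 CPM in CD45-KO and 16.4 CPM in LatY136F (0.89, 0.74 to 1.05), opposite in direction to Nfil3. Nr1d1 (0.90) and Ciart (1.56), also clock repressors, were the other higher ones, and Hlf (-0.70) was the lower one. The hour at which each spleen was taken is not stated and cannot be told apart from genotype. The Maf family had 0 lower and 0 higher of 7 (median 0.20), with Mafg at -0.45 and Bach2 at 0.52. The GATA family and partners had 1 lower and 0 higher of 3 (median -0.31), the lower one being Gata1 at 3.61 CPM in CD45-KO and 9.83 CPM in LatY136F. The chemokine receptors other than Ccr8 had 1 lower and 3 higher of 14 (median 0.28). Ccr7, the lymph node homing receptor, was at 26.1 CPM in CD45-KO and 11.02 CPM in LatY136F, Cxcr3 (1.40) and Cxcr5 (0.97) were also higher, and Ccr9 (-0.79) was lower.

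**Figure D4:**
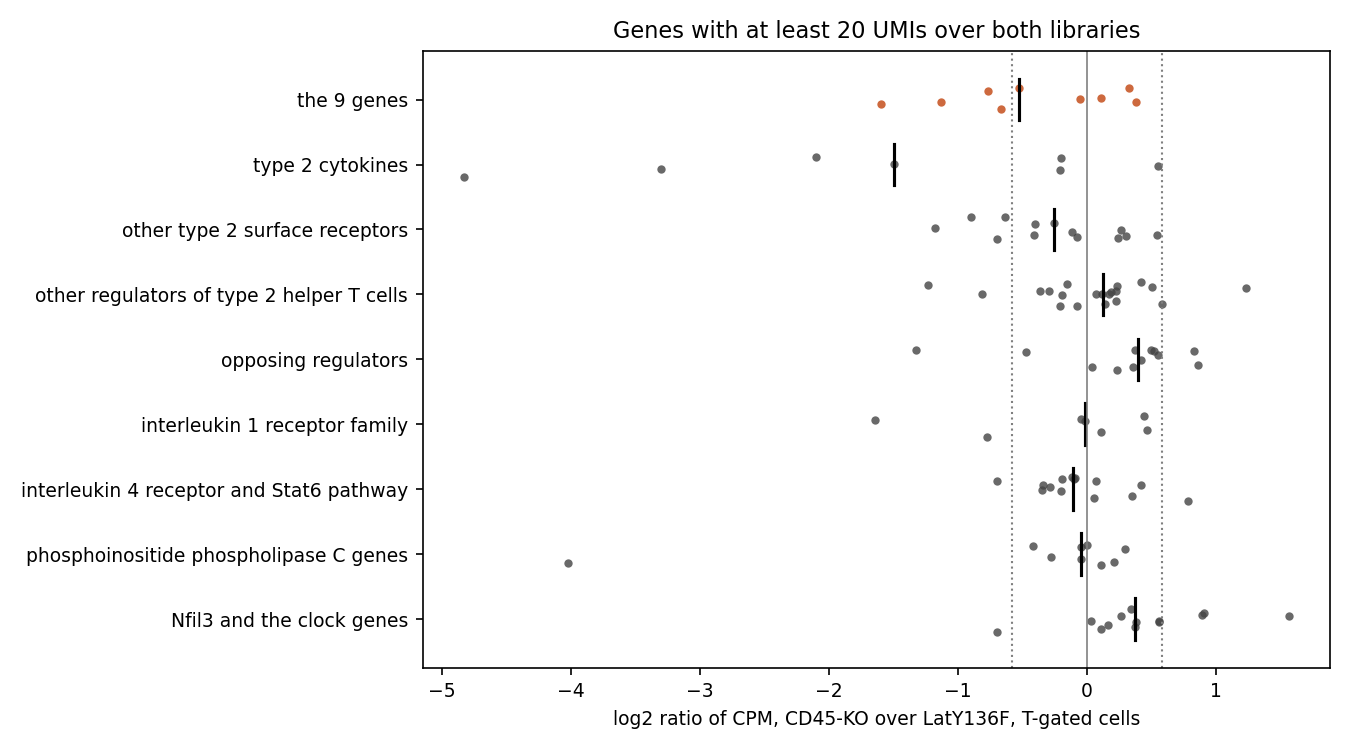
Log2 ratio of CPM, CD45-KO over LatY136F, for the 9 genes (orange) and 8 of the 14 lists (grey); each point is 1 gene with at least 20 UMIs, the black bar is the list's median, dotted lines mark 1.5-fold, and a count of 0 was set to 3 UMIs. The members' median is -0.53. That of the type 2 cytokine list, which also holds Il3, Il6 and Il10, is -1.50, the value of Il6. The lists of interleukin 1 receptors and phospholipase C genes have medians of -0.02 and -0.04.

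Other cell types that use these genes were read from their markers. All 10 counted markers of type 2 innate lymphoid cells were seen in both libraries, with a summed level of 363 CPM in the CD45-KO library and 292 CPM in the LatY136F library, most of it from Ptpn13 and Klrg1, which T cells also express. Arg1, a defining marker of these cells, had 15 UMIs in CD45-KO and 7 in LatY136F. Markers of this list went both ways. Kit (21 UMIs in CD45-KO, 4 in LatY136F), Nmur1 (66 in CD45-KO, 46 in LatY136F) and Klrg1 (0.83) were also higher in CD45-KO. Calca (7 UMIs in CD45-KO, 47 in LatY136F), Il9r (-0.40) and Areg (-0.21) were lower. Regulatory T cell markers summed to 777 CPM in CD45-KO and 799 CPM in LatY136F, all 11 seen in both, with 72 Foxp3 UMIs in CD45-KO and 222 in LatY136F. These near-level sums hide members that went both ways. Ikzf2 (1.76) and Nrp1 (0.53) were higher in CD45-KO, and Il1r2 (-1.64), Il2ra (-1.18) and Capg (-0.83) were lower. The natural killer cell markers summed to 53.6 CPM in CD45-KO and 106 CPM in LatY136F, with Ncr1 at 0 in both. The difference in that sum lay in Gzma, with 457 UMIs in CD45-KO and 2864 in LatY136F, a gene that cytotoxic T cells also express. Eomes (30.0 CPM in CD45-KO, 20.5 CPM in LatY136F) and the rarer Klre1 (38 UMIs in CD45-KO, 3 in LatY136F), Klra8 (20 in CD45-KO, 0 in LatY136F), Klrd1 (49 in CD45-KO, 26 in LatY136F) and Tyrobp (34 in CD45-KO, 18 in LatY136F) were higher in CD45-KO. B-lineage markers summed to 110 CPM in CD45-KO and 124 CPM in LatY136F, and myeloid markers to 10.2 CPM in CD45-KO and 9.06 CPM in LatY136F, with C1qa and Cd14 at 0. The part of these cell types in the levels of Il1rl1, Il17rb, Ccr8 and Pparg was not tested.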

How the data were processed

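The authors deposited UMI counts, 1 column per gene and 1 line per cell, which their pipeline had corrected for UMI errors and which carry no other scaling. Per the file headers, the BD whole transcriptome pipeline 1.9.1 made them on GRCm38 with GENCODE M19. Other versions stand elsewhere, with pipeline 2.0 and Seurat 4.04 in the design text and GRCm39 in the submitters' processing notes. The headers were followed, and gene locations were read from a GRCm38 annotation.

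Cells were kept from 200 genes upward and up to 25% mitochondrial counts (12834 CD45-KO and 13747 LatY136F). A T-gated cell had at least 1 UMI over 6 CD3 and receptor constant genes and fewer than 3 over 10 B-lineage and myeloid genes. No doublet caller was run, and doublets were kept. B-lineage cells had at least 3 UMIs of B-lineage genes, at most 5 T cell UMIs and fewer of these than B-lineage UMIs, a gate loosened after the first one left 1 cell.

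The gates on transcripts were: cycling, at least 3 of 13 genes; interferon, at least 4 of 10 response genes; follicular, at least 2 of 4; cytotoxic, at least 2 of 8; quiescent, at least 2 of 4; signalled, at least 2 of 7 receptor-induced genes (Nr4a1 to Nr4a3, Egr1 to Egr3, Tnfrsf9). The others took at least 1 UMI of Gzma or Gzmb, of Il4, Il5 or Il13, of Il6, of Il2ra without Foxp3, of Klrg1 or of Trdc. Foxp3 cells (29 CD45-KO and 99 LatY136F) and Cd8 cells (25 CD45-KO and 17 LatY136F) were too few to report.

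CPM is the summed UMIs of a gene per 1000000 UMIs of the same cells. Levels have exact Poisson intervals, ratios exact conditional binomial intervals and shares Clopper-Pearson intervals. They cover counting error only, and the difference between mice or captures has no measure here. In ratios a library with no UMI was given the floor of 3 counts. For shares and co-expression each cell was thinned to 1000 UMIs, which left out 354 CD45-KO and 431 LatY136F cells. The interval computation was tested on simulated counts. Analyses used Python 3.11.15, numpy 2.4.6, scipy 1.17.1, pandas 2.3.3 and, for TMM factors, edgeR 4.0.16.

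The 9 genes, the lists and the gates were chosen with earlier results of these data known. All members are named. In each list the rule named up to 4 genes, those farthest from 0 that reached 20 CPM in a library. Il3, Il10, Il13, Foxp3, Tbx21, Socs5, Plcd3, Scd1, Nr1d1, Ciart, Hlf, Gata1, Cxcr3, Cxcr5, Ccr9, Il9r, Il1rl2, Il18r1 and Il18rap are named outside it, chosen after their values were seen. For likeness, the 5 closest genes are named, except for 1 that is not reported here. Alternatives were other cell filters, scalings, depths, gates and folds, and samples were grouped by genotype as labelled.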

Additional observations from a re-analysis of the deposited data

Results flagged for a closer look

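The level of Il17rb in Il1rl1-positive over Il1rl1-negative cells was -2.07 on the log2 scale in the CD45-KO library, with an interval below 0, and 0.27 in the LatY136F library, with an interval that spans 0. The reverse division gave Il1rl1 in Il17rb-positive over Il17rb-negative cells of -1.21 (-1.90 to -0.60) in the CD45-KO library and 0.07 (-0.19 to 0.32) in the LatY136F library. Both are the same set of cells seen from either gene, so they are 1 pattern. The difference between the libraries was not tested, as each genotype is 1 library. The CD45-KO value rests on 11 Il17rb UMIs in Il1rl1-positive cells. With cells thinned to 500 UMIs the LatY136F ratio of Il17rb was below 0 too, at -0.21 (-0.91 to 0.45), beside -1.97 (-4.33 to -0.29) in CD45-KO, and the intervals overlap.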

How the results depend on the processing

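No paired analysis was possible because each genotype has 1 library, and for the same reason no replicate could be left out. Over 11 alternatives 0 of the 9 member ratios changed sign. They ran from -0.12 to -0.02 for Gata3, -0.62 to -0.46 for Maf, -0.76 to -0.63 for Nfil3, 0.17 to 0.36 for Il1rl1, -1.70 to -1.48 for Il17rb, -1.33 to -0.77 for Ccr8, -0.81 to -0.70 for Plcd1, 0.32 to 0.45 for Stat6 and 0.06 to 0.27 for Pparg. The median of the members, -0.53, was -0.46 with at most 10% mitochondrial counts, -0.55 without the T gate, -0.59 with cells weighted equally, -0.56 with size factors by the median of ratios, -0.49 without mitochondrial and ribosomal genes in the total, -0.57 with TMM factors, -0.59 with the mix of states held equal, -0.60 with thinned cells and -0.62 without cycling cells. The count of members past the fold was 4 or 5 under these, and 2 at a fold of 2. The scalings moved the median of all genes by at most 0.04. Of the 64 co-expression pairs, 12 had intervals off 0 on the same side in both libraries, 14 without cycling cells and 5 with cells thinned to 500 UMIs, which leaves fewer UMIs to count. The same share over all pairs of genes was not computed. At 500 UMIs the Il17rb ratio by Il1rl1 in the LatY136F library changed sign, to -0.21, and the interval of Gata3 by Il1rl1 in CD45-KO came to span 0. So did the intervals of Maf by Pparg in LatY136F, of Il17rb by Gata3 in LatY136F and of Il17rb by Pparg in both libraries. With gates set on thinned cells, 27 of 87 pairs of state and member were lower past the fold. Share differences kept their sign except for Pparg, -0.20 percentage points unthinned against 0.27 thinned. Of the pathway genes, 29 to 34 passed the fold. Depth limits Ccr8, Il17rb, Plcd1 and Pparg most. Ratios rest on counting error within 1 library per genotype, so differences between mice are not measured.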
